A study of Mus musculus with 2 samples.

Results

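The RNAs of the mitochondrial genome and of its nuclear copies were described in newborn mouse heart through 41 of the 43346 mouse genes in the deposited tables. They are the 37 genes annotated on the mitochondrial chromosome, whose symbols begin with mt-, and 4 pseudogenes of chromosome 1, Gm28437, Gm28661, Gm29216 and Gm28438. The mitochondrial genes are 2 rRNA genes, 13 mRNA genes and 22 tRNA genes. The 4 pseudogenes were named after earlier results of these libraries had shown them to be high, so their levels are given as a description.

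Both libraries came from whole hearts of B6NCrl mice at postnatal day 0, 1 heart per library, and the labels name no treatment, mutation or control group. Replicate 1 was made from pup 1 and replicate 2 from pup 3. Sex was not collected, and both pups carry the same donor identifier. The input was 13 pg of total RNA longer than 200 nt, extracted with a mirVana kit and equal to 1 cell-equivalent, and the labels name a Smart-seq protocol, which copies and amplifies RNA from very small inputs. The RNA came from a whole organ and not from a sorted cell, so fewer cells of a type and less RNA per cell cannot be told apart. The tables held 40648662 expected counts in replicate 1 and 33173354 in replicate 2. Each library held at least 1 TPM of all 8 heart muscle markers, and 0 counts of the liver markers Alb, Afp and Apoa1, which allows up to 0.0756 CPM (counts scaled to 1000000) in replicate 1 and 0.0916 CPM in replicate 2. The red cell markers summed to 5657 and 5564 TPM. The skeletal muscle marker Mylpf had 22.1 and 0 TPM, and Myh3 and Myh8 had 0 TPM in both libraries. The brown fat marker Cidea had 90.6 and 54.8 TPM, and Ucp1 had 0 TPM in both. TPM, a transcript count per length, divides each expected count by the effective length of its gene, and was rescaled here to sum to 1000000 over mouse genes. With 1 group there was no test, and a difference between the libraries mixes the pups, the RNA aliquots and the amplifications. Reads carried no molecular identifiers.

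Mitochondria keep a small circular genome of their own, which encodes core subunits of the respiratory chain and of ATP synthase together with the rRNAs and tRNAs needed to translate them. Both of its strands are transcribed as long precursors, which are mostly separated at the tRNAs that lie between the other genes. Heart muscle is rich in mitochondria and depends on oxidative phosphorylation. Pieces of the mitochondrial genome have also been inserted into nuclear chromosomes, where they are annotated as pseudogenes.

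Annotated nuclear transcripts were aligned to the mitochondrial genes, with 90% identity over 50% of the length as the minimum. The 4 pseudogenes belong to a row of 7 copies on the minus strand of chromosome 1, chr1:24611535-24616197 (mm10), each a copy of 1 mitochondrial gene. Gm28437 copies mt-Co3 and Gm28661 copies mt-Co2, both at 100% identity over their whole length. Gm28438 copies mt-Nd3 with 1 base difference in 345 nt. Gm29216 copies the last part of mt-Co1, aligned from base 1063 of the gene to its end at base 1545. The other 3 copies of the row, Gm10925 (mt-Atp6), Gm10222 (mt-Nd4l) and Gm28439 (mt-Nd4), were also 100% identical to their genes over the length of the copy. Gm28439 is a partial copy, of the first 876 of the 1378 bases of mt-Nd4. The ends or starts at which the annotated transcripts of gene and copy differ are printed 5′ to 3′ from GENCODE M21 (mm10). Capitals mark bases that differ, or that lie past the annotated end of the copy. The first pair of lines shows the 3′ end of mt-Co3, chrM:9331-9390 on the plus strand. The annotated copy stops before its last base. The second pair shows the 3′ end of mt-Co2, chrM:7637-7696, where the annotated copy stops before the last 3 bases. The sequence of chromosome 1 past these annotated ends was not compared.
mt-Co3: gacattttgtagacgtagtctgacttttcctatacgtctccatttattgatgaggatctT
Gm28437 (chr1:24613189-24613247, minus strand): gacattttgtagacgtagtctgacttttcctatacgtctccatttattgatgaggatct
mt-Co2: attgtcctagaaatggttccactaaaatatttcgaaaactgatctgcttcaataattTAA
Gm28661 (chr1:24614885-24614941, minus strand): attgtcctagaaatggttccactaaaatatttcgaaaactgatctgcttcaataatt

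The other 2 copies differ from their genes near their 5′ ends. Positions are counted from 1 at the first base of the mitochondrial gene, and the base of the gene stands first. Gm28438 carried T3C relative to mt-Nd3 (gene shown at chrM:9459-9518). Gm29216, set beside mt-Co1 by position without gaps, differed at T1056A, C1057T, A1059G, A1060G, C1062A and A1066T (gene shown at chrM:6381-6440). These 6 differences all lie within the first 13 bases of the copy. The alignment began at base 10 of the copy, so only A1066T lay within it. Whether the bases before it descend from mt-Co1 was not tested.
mt-Nd3: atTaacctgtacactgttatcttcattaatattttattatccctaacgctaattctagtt
Gm28438 (chr1:24613060-24613119, minus strand): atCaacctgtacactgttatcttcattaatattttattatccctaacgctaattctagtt
mt-Co1: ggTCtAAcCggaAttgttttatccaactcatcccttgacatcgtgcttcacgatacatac
Gm29216 (chr1:24616138-24616197, minus strand): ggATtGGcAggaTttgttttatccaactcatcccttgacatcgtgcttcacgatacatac

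The effective length of a gene is the number of positions at which a fragment can start, and in these tables it was the length less 99 nt for 19 of 19 members that had one, as for a window of 100 nt. Windows were counted within the annotated transcripts, so a window of its own can rest on where the annotation of a copy stops. Counted so, mt-Co3 had 685, of which 684 also occur in Gm28437. Thus 1 window is its own, while Gm28437 had none that mt-Co3 lacks. For mt-Co2, 582 of 585 windows were shared and 3 were its own, and all 582 of Gm28661 were shared. For mt-Nd3, 243 of 249 windows were shared with Gm28438, which had 3 of its own. Gm29216 shared 380 of its 393 windows with mt-Co1, whereas those 380 were 26.3% of the 1446 windows of mt-Co1. A read of this length can therefore seldom be placed on sequence alone in 3 of the 4 pairs, while most of mt-Co1 is free of the copy.

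The tRNA genes could not be measured. All 22 had an effective length of 0 and 0 counts in both libraries. They are 59 to 75 nt long (median 68.5 nt), shorter than the 100-nt window and than the 200-nt size limit of the RNA. Their zeros are a property of the tables and set no limit on tRNA levels. Of the 22, 14 lie on the plus strand and 8 on the minus strand. The shortest, the serine tRNA gene mt-Ts2 (chrM:11613-11671), and the longest, the leucine tRNA gene mt-Tl1 (chrM:2676-2750), are printed to show how little of a window each would fill.
mt-Ts2: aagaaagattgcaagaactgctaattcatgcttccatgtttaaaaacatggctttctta
mt-Tl1: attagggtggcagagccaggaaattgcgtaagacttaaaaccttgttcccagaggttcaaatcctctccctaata

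The 19 members with an effective length were among the most abundant RNAs of both libraries. By the mean of the libraries, Gm28437 held place 1 among all mouse genes, mt-Atp6 place 2, mt-Atp8 place 3 and mt-Nd1 place 5, while mt-Nd4l was the lowest of the 19, at place 502. The first places rest on how reads were divided: mt-Atp6 was above Gm28437 by deposited TPM in replicate 2, and by posterior mean TPM it was above it in both libraries, with 25622 and 22627 TPM for mt-Atp6 and 23272 and 19334 TPM for Gm28437. All 41 members had 1 transcript each, whose count equalled that of the gene.

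**Figure D1:**
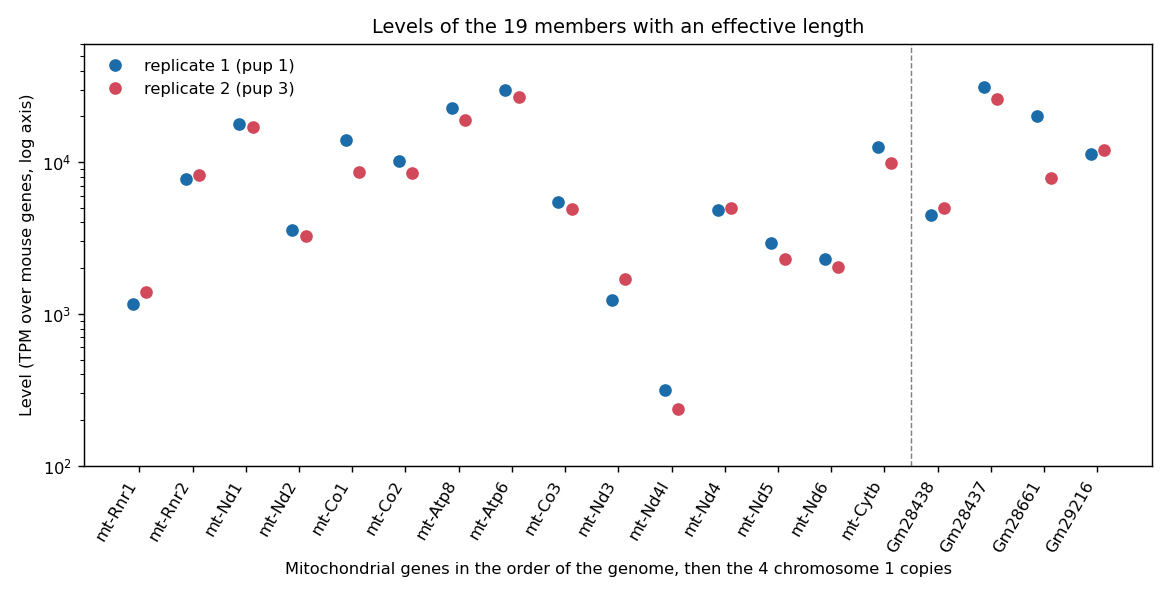
Level of the 19 members with an effective length (TPM over mouse genes, log axis), with replicate 1 in blue and replicate 2 in red; genes run in the order of the mitochondrial genome and the 4 copies stand right of the dashed line. Points lie between 237 TPM (mt-Nd4l, replicate 2) and 31438 TPM (Gm28437, replicate 1), and Gm28661 has the widest gap between the libraries.

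The rRNA genes encode the RNAs of the small (mt-Rnr1) and large (mt-Rnr2) subunit of the mitochondrial ribosome. In replicate 1 mt-Rnr1 (chrM:70-1024) had 1165 TPM, and in replicate 2 it had 1388 TPM (1277 ± 158, SD, n = 2). mt-Rnr2 (chrM:1094-2675) had 7744 and 8233 TPM (7988 ± 345). The large rRNA was thus above the small one in both libraries, by 2.73 and 2.57 on the log2 scale (2.65 ± 0.12), or 6.28-fold. Both rRNAs were slightly higher in replicate 2, and together they made up 6.51% and 8.11% of mitochondrial TPM. How evenly the protocol copies rRNA and mRNA was not tested. This share and the ratio of the rRNAs thus describe the libraries and not the RNA of the heart. No pseudogene in the tables met the alignment minimum for either rRNA, and the deposited posterior SD of their counts, the quantifier's own measure of how uncertain the placing of reads is, was below 1 count in each library.

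Complex I, which passes electrons from NADH to ubiquinone, takes 7 subunits from the mitochondrial genome. mt-Nd1 led them, at 17757 and 16936 TPM (17347 ± 580). mt-Nd4 had 4841 and 4963 TPM (4902 ± 86.6) and mt-Nd2 had 3588 and 3278 TPM (3433 ± 220). These 3 genes differed between the libraries by 1.09-fold at most. mt-Nd5 had 2944 and 2282 TPM (2613 ± 469). mt-Nd6, the only mRNA gene on the minus strand, had 2281 and 2049 TPM (2165 ± 164). mt-Nd5 and mt-Nd6 overlap by 14 nt on opposite strands, and the sources used here state no strand rule for the counts, so reads of the overlap cannot be told apart. Nor can RNA of the opposite strand be told apart over the rest of mt-Nd6 or of any other mitochondrial gene. Against its neighbour mt-Cytb on the other strand, mt-Nd6 was lower by a log2 difference of -2.47 in replicate 1 and -2.27 in replicate 2. The strand limit holds for this comparison too, and how evenly the protocol copies the RNAs of these genes was not tested.

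The lowest 2 complex I mRNAs were those with a near-identical copy over their whole length. mt-Nd3 had 1235 and 1685 TPM (1460 ± 318). Its posterior SD was 6.63% and 7.51% of its posterior mean count. mt-Nd4l had 314 and 237 TPM (276 ± 54.5), with a posterior SD of 34.0% and 47.1%. mt-Nd4l and mt-Nd4 lie on a shared mRNA in mammals and overlap here by 7 nt, and mt-Nd4 read higher by 3.94 and 4.39 on the log2 scale. The copy Gm10222 held 2926 and 2067 TPM of sequence shared with mt-Nd4l, which had 3 windows of its own.

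mt-Cytb encodes cytochrome b, the 1 mitochondrial subunit of complex III, which passes electrons on to cytochrome c. It had 12633 TPM in replicate 1 and 9856 in replicate 2 (11245 ± 1964). Its read placement was settled, with a posterior SD below 1 count.

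Complex IV, cytochrome c oxidase, takes its catalytic core from mt-Co1, mt-Co2 and mt-Co3. mt-Co1 had 14083 and 8607 TPM (11345 ± 3872) and was 1.64-fold higher in replicate 1, the widest gap of any mitochondrial gene. mt-Co2 had 10178 and 8457 TPM (9317 ± 1217), and mt-Co3 had 5415 and 4876 TPM (5145 ± 381). By deposited TPM, mt-Co2 stood above mt-Co3 by 0.91 and 0.79 on the log2 scale. The order of these genes did not hold under another deposited estimate, since with the posterior mean TPM that difference was 0.16 in replicate 1 and -0.20 in replicate 2. The posterior SD was 34.2% and 28.4% of the posterior mean count for mt-Co2, 69.2% and 69.1% for mt-Co3, but 0.061% and 0.079% for mt-Co1.

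Complex V, the ATP synthase, takes mt-Atp6 and mt-Atp8 from the mitochondrial genome, both part of its membrane sector. mt-Atp6 had 29806 and 26947 TPM (28377 ± 2021), the highest level of any mitochondrial gene in both libraries. mt-Atp8 had 22812 and 18881 TPM (20846 ± 2779). The genes share 43 nt and an mRNA, and mt-Atp6 read higher by 0.39 and 0.51 on the log2 scale. By posterior mean TPM the difference was 0.19 and 0.29. The posterior SD of mt-Atp6, whose copy is Gm10925, was 13.9% and 13.4% of its posterior mean count. Its deposited intervals ran from 20836 to 30664 and from 18323 to 26466 TPM. They contained the posterior mean TPM of mt-Atp8, 22430 and 18512. Over an effective length of 105 nt, the level of mt-Atp8 rests on 77358 and 54320 counts, and the shared 43 nt are shorter than a 100-nt window.

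The 4 copies were read at 4484 to 31438 TPM, a range that lies within or above that of the mitochondrial mRNAs. Gm28437, the copy of mt-Co3, had 31438 TPM in replicate 1 and 26230 in replicate 2 (28834 ± 3683). Gm28661, the copy of mt-Co2, had 20214 and 7884 TPM (14049 ± 8718). Gm29216, the partial copy of mt-Co1, had 11331 and 11920 TPM (11625 ± 416), and Gm28438, the copy of mt-Nd3, had 4484 and 4986 TPM (4735 ± 355). Replicate 1 was the higher library for Gm28437 and Gm28661 and the lower one for Gm29216 and Gm28438. Together they held 33.0% and 30.1% of the TPM of the 41 members (31.5 ± 2.10%), and they held 92.0% and 93.8% of the TPM on all 15 aligned pseudogenes of the tables.

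Each copy was set against its gene within a library. Gm28437 stood above mt-Co3 by 2.54 and 2.43 on the log2 scale (2.48 ± 0.08), and Gm28438 stood above mt-Nd3 by 1.86 and 1.56 (1.71 ± 0.21). Both differences had the same direction in each library and a mean over 2 SD. Gm28661 over mt-Co2 gave 0.99 in replicate 1 and -0.10 in replicate 2, and Gm29216 over mt-Co1 gave -0.31 and 0.47, so neither pair had the same order in both libraries. With the posterior mean TPM, the difference of Gm28437 over mt-Co3 was 0.82, against 2.48 with the deposited TPM.

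The intervals deposited with the posterior means, whose level the sources used here do not state, show how far the placing of reads was left undecided. For Gm28437 they ran from 7750 to 32199 TPM in replicate 1 and from 6324 to 27852 in replicate 2. For mt-Co3 they ran from 4035 to 28420 TPM and from 2652 to 24127. The intervals of copy and gene overlapped over most of their range in both libraries. For Gm28661 they ran from 5850 to 20399 and from 1334 to 9191 TPM, and for mt-Co2 from 9497 to 23951 and from 6834 to 14665 TPM. Gm29216 and mt-Co1, which keep 13 and 1066 windows of their own, had posterior SDs of 0.279% or less. Gm29216 still shares 380 of its 393 windows with mt-Co1, and how evenly reads cover mt-Co1 was not tested. The small SDs thus do not show that the level of this copy is well determined. Of the 19 members, 8 had a posterior SD over 1% in both libraries, and 7 had one below 1 count in both.

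The sum of the counts of a gene and its copy does not depend on how reads were divided between them. mt-Co3 and Gm28437 summed to 814305 counts in replicate 1 and 583098 in replicate 2, and the copy was given 85.3% and 84.3% of them. mt-Co2 and Gm28661 summed to 572244 and 261279 counts, with 66.4% and 48.1% on the copy. The posterior mean counts gave the same sums but other divisions, with 64.2% and 63.4% on Gm28437 and 51.5% and 39.4% on Gm28661. mt-Nd3 and Gm28438 summed to 45561 and 45105 counts, with 78.2% and 74.5% on the copy. mt-Co1 and Gm29216 summed to 801517 and 469369 counts, with 17.9% and 27.3% on the copy.

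The 3 further copies of the row, which are not members, took unlike shares. Gm10222 was given 90.2% and 89.6% of the 20439 and 12333 counts that it shares out with mt-Nd4l. Gm10925 was given 8.84% and 4.50% of the 614610 and 449968 counts of its pair with mt-Atp6, and Gm28439 was given 0.0127% and 0.00787% of its pair with mt-Nd4. All 3 are identical in sequence to the part of the gene they copy. The share given to a copy was thus close to none for Gm28439 and most of the pair for Gm10222. The partial copy Gm28439 leaves mt-Nd4 502 of its 1279 windows of 100 nt, whereas Gm10222 leaves mt-Nd4l 3 and Gm10925 leaves mt-Atp6 3. The part of these windows in the division of reads was not tested. The reference assembly is that of C57BL/6J and the pups were B6NCrl, and the part of strain differences in the division of reads was not tested.

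**Figure D2:**
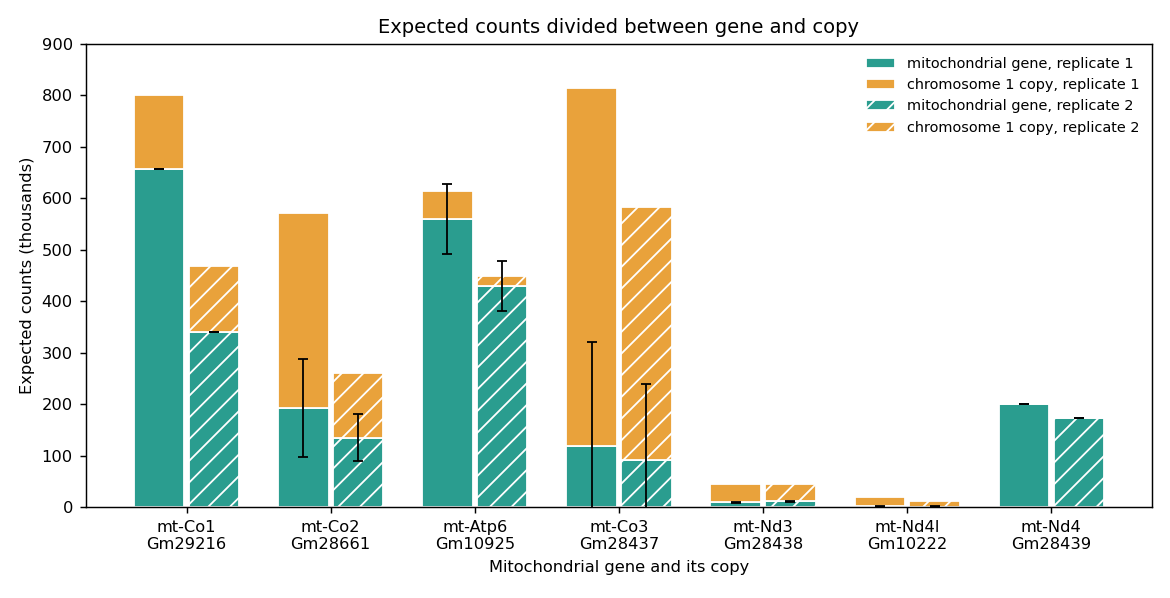
Expected counts (in units of 1000) given to each mitochondrial gene (green) and its chromosome 1 copy (orange), stacked to their sum, for replicate 1 (plain) and replicate 2 (hatched); black bars are the deposited posterior SD of the count of the gene, drawn around the expected count and ending at the axis where they pass 0. The bars are long for mt-Co2, mt-Atp6 and mt-Co3 and too short to see for mt-Co1 and mt-Nd4.

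Summing the counts of gene and copy and dividing by the effective length of the gene changed the order of the 13 mRNAs. mt-Co3 moved from place 7 to place 1, at 36808 TPM in replicate 1 and 31069 in replicate 2 (33938 ± 4058). mt-Co2 moved from place 6 to place 3, at 30288 and 16301 TPM (23294 ± 9890.3), mt-Nd3 from place 12 to place 8, at 5665 and 6611 TPM (6138 ± 669), and mt-Nd4l from place 13 to place 11, at 3196 and 2273 TPM (2735 ± 653). mt-Atp6 held place 2 on this scale, at 32698 and 28217 TPM (30457 ± 3168). mt-Co1 moved from place 4 to place 6, at 17163 and 11847 TPM (14505 ± 3759). The ratio of the highest to the lowest mean was 103 with the genes alone and 15.7 with their copies added.

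**Figure D3:**
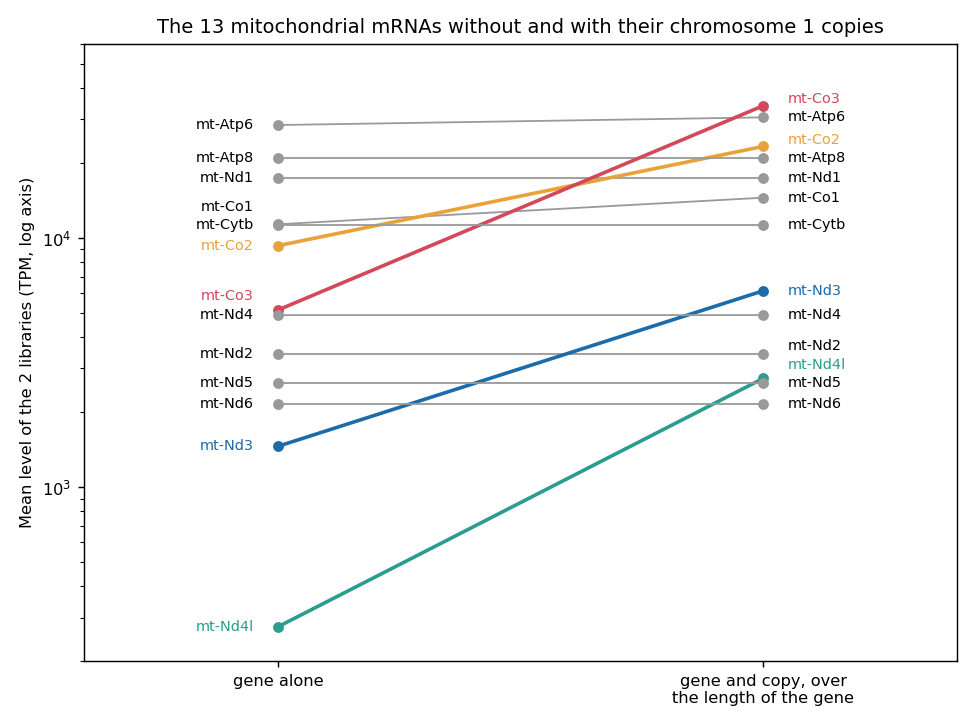
Mean level of the 2 libraries (TPM, log axis) for each of the 13 mitochondrial mRNAs, from the gene alone (left) and from the summed counts of gene and chromosome 1 copy over the effective length of the gene (right). Lines of mt-Co3, mt-Co2, mt-Nd3 and mt-Nd4l, in colour, cross those of other genes, and genes without a copy in the row stay level.

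The libraries ranked the 13 mRNAs alike. Across these genes Spearman's rho between the libraries was 0.989 with the genes alone and 0.978 with the copies added. The genes share library and depth and are not independent, so this is a description. Neighbours in the order were called apart when their log2 ratio had the same sign in both libraries and a mean over 2 SD. With the genes alone 6 of 12 neighbour pairs were apart, and with the copies added 5 of 12 were. Alone, mt-Atp6 was apart from mt-Atp8, mt-Cytb from mt-Co2, mt-Co2 from mt-Co3, mt-Nd4 from mt-Nd2, mt-Nd2 from mt-Nd5 and mt-Nd3 from mt-Nd4l. By posterior mean TPM mt-Atp6 stayed above mt-Atp8, by 0.19 and 0.29 on the log2 scale. The order of mt-Cytb and mt-Co2 was turned by that estimate, with mt-Co2 at 14441 and 9685 TPM and mt-Cytb at 12422 and 9663 TPM. On the same estimate mt-Co2 and mt-Co3 changed places between the libraries. By deposited TPM, mt-Co1 and mt-Cytb changed places between the libraries, and so did mt-Co3 and mt-Nd4. With the copies added, mt-Co3 was above mt-Atp6 in both libraries by 0.15 ± 0.02 on the log2 scale, while mt-Co2 and mt-Atp8 changed places, as did mt-Nd4l and mt-Nd5.

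Between the libraries, 1 of the 19 measured members was over 2-fold apart, counted on log2(TPM + 1) among genes that averaged at least 5 TPM. It was Gm28661, 2.56-fold higher in replicate 1. Of the 8266 mouse genes that did so, 54.6% were over 2-fold apart, with 26.9% higher in replicate 1 and 27.7% in replicate 2. The members are far above the usual level, and of the 151 genes that averaged at least 1000 TPM, 9.93% were over 2-fold apart, with 7.95% higher in replicate 1 and 1.99% in replicate 2. The count of 1 in 19 is near that background. The summed level of Gm28661 and mt-Co2 was 1.86-fold higher in replicate 1.

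Of the 13 mitochondrial mRNAs, 11 were higher in replicate 1, mt-Nd4 and mt-Nd3 being the exceptions, and 4 of the 15 genes with the rRNAs included were higher in replicate 2. The 8 heart muscle markers summed to 42860.0 TPM in replicate 1 and 61574 TPM in replicate 2, with Actc1 at 13939.7 and 23510.0 TPM, Myl2 at 5082 and 15945 TPM and Myl7 at 4639 and 2239 TPM, and their part in this shift was not tested. The log2 ratio of replicate 1 over replicate 2 ran over the 19 members from -0.45 (mt-Nd3) to 1.36 (Gm28661), with a median of 0.15. Its median was -0.01 over all genes that averaged at least 5 TPM and -0.11 over those that averaged at least 1000 TPM. The median of the members was above 0 under each scaling tried, 0.18 with TMM factors, where the median of all genes was 0.06, and 0.22 with DESeq2 size factors, where it was 0.09.

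**Figure D4:**
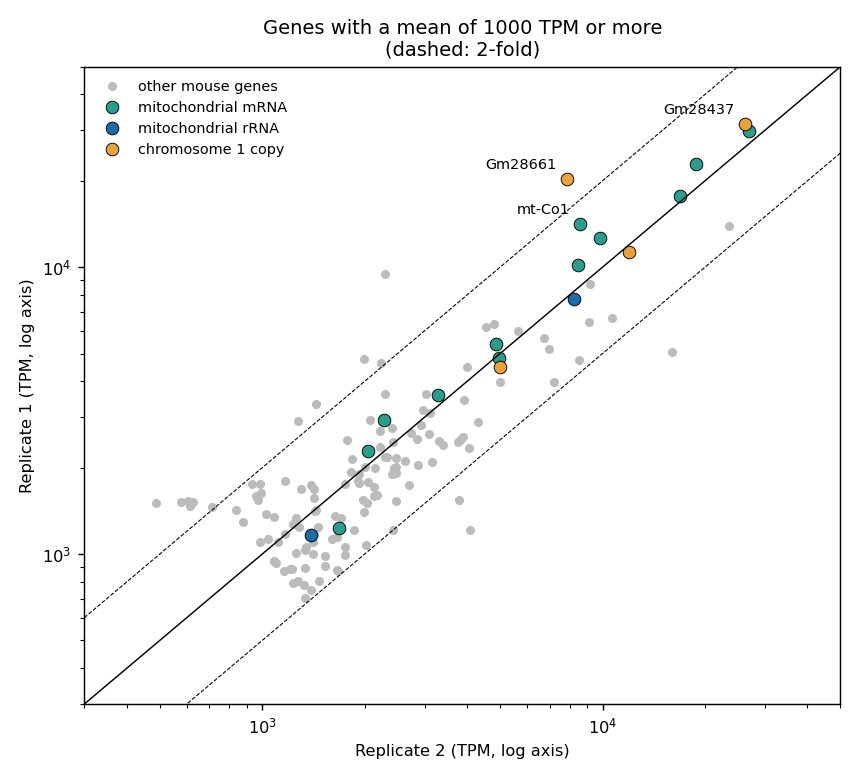
Level in replicate 1 (y axis) against replicate 2 (x axis), both TPM on log axes, for the 151 genes that averaged at least 1000 TPM; the solid line marks equal levels and the dashed lines a 2-fold difference. Gm28661 is the 1 member beyond the dashed lines, and mt-Co1, labelled, is 1.64-fold higher in replicate 1.

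The mitochondrial subunits are built into complexes with subunits of the nuclear genome, and 74 nuclear subunits of complexes I, III, IV and V were set beside them. The 13 mitochondrial mRNAs summed to 127888 TPM in replicate 1 and 109055 in replicate 2, and the nuclear subunits to 98229.8 and 124248 TPM. The mRNAs that mt-Atp8 shares with mt-Atp6 and mt-Nd4l with mt-Nd4 enter the mitochondrial sum for each of their genes. The ratio of mitochondrial to nuclear was 1.30 in replicate 1 and 0.878 in replicate 2 (1.09 ± 0.300), on opposite sides of 1. With the 4 copies added to the mitochondrial sum it was 1.99 and 1.29, above 1 in both libraries. All 74 nuclear genes had at least 1 TPM in each library, and 2 of them were over 2-fold apart, Ndufb3 (98.4 and 373 TPM) and Ndufv3 (444 and 1045 TPM) of complex I, named after their values were seen. Over all mouse genes the share was 54.6% at a mean of at least 5 TPM and 9.93% at a mean of at least 1000 TPM. The median log2 ratio of replicate 1 over replicate 2 was -0.26 for the nuclear subunits of complex I, -0.31 for complex III, -0.49 for complex IV and -0.24 for complex V.

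By complex, the mitochondrial subunits summed to 52617 and 45828 TPM for complex V, against 29963 and 38379.9 TPM for its 15 nuclear subunits, and without the copies this was the 1 complex whose mitochondrial sum was the larger in both libraries. That order rests on counting the shared mRNA for both mt-Atp6 and mt-Atp8. Alone, mt-Atp6 had 29806 and 26947 TPM, below the nuclear sum of complex V in both libraries. For complex III, mt-Cytb was below the sum of 9 nuclear subunits in both libraries, with a ratio of 0.824 and 0.540. Complex I had a ratio of 1.13 and 0.896 and complex IV of 1.24 and 0.674. With the copies of the row added, the ratio of complex I was 1.39 and 1.10, and that of complex IV, where Gm28437, Gm28661 and Gm29216 summed to 62983 and 46034 TPM, was 3.88 and 2.09. Both were then above 1 in each library, as complex V was. These ratios, like those with the 4 copies, add the TPM of each copy, so the partial copy Gm29216 entered as a whole mRNA. The order of the 13 mRNAs with copies instead used summed counts over the effective length of the gene. No copy in the row belongs to complex III.

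Gene by gene and by deposited TPM, the mitochondrial subunits of complexes III, IV and V were all above the highest nuclear subunit of the same complex in both libraries. Those nuclear leaders were Uqcr11 in complex III (2393 and 3405 TPM), Cox4i1 in complex IV (3442 and 3919 TPM) and Atp5b, the catalytic beta subunit of complex V (4743 and 8540.3 TPM). For mt-Co3 in replicate 2 the deposited interval, from 2652 to 24127 TPM, reached below Cox4i1. In complex I, 5 of 7 mitochondrial subunits in replicate 1 and 3 of 7 in replicate 2 exceeded Ndufb8 (2008 and 2474 TPM). With the counts of gene and copy summed, mt-Nd3 exceeded Ndufb8 in both libraries, at 5665 and 6611 TPM. On that scale mt-Nd4l exceeded it in replicate 1, at 3196 TPM, but not in replicate 2, at 2273 TPM. The next nuclear genes by mean were Ndufab1, Ndufb9 and Ndufc1 in complex I, Uqcr10, Uqcrb and Uqcrc1 in complex III, Cox6b1, Cox6c and Ndufa4 in complex IV, and Atp5g1, Atp5g3 and Atp5a1 in complex V. Their levels lay between 1752 TPM (Ndufc1, replicate 1) and 4985 TPM (Atp5g1, replicate 2).

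**Figure D5:**
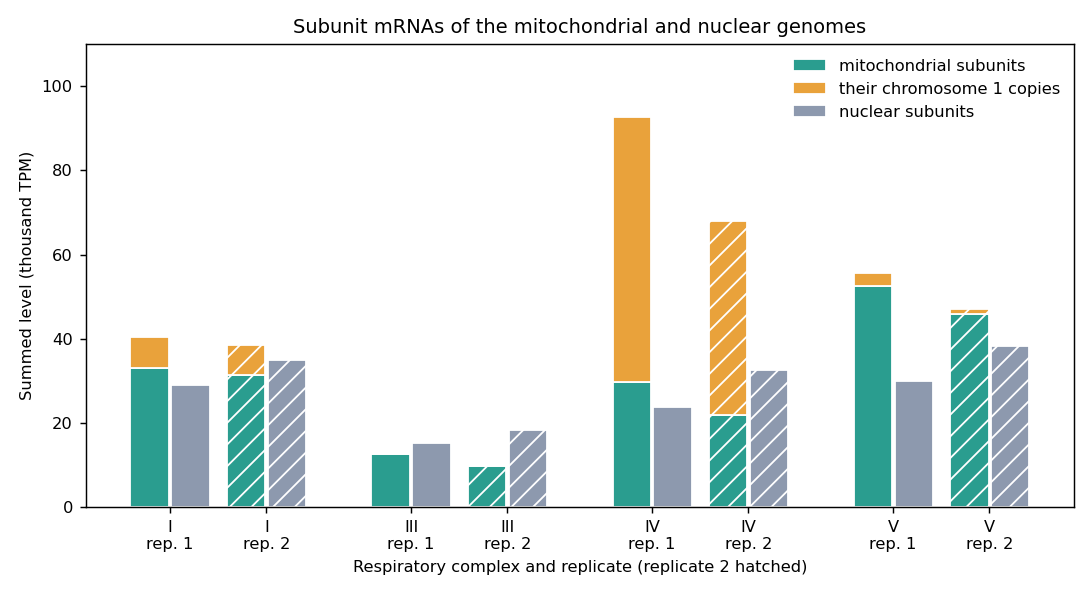
Summed level (in units of 1000 TPM) of the mitochondrial subunits (green) with their chromosome 1 copies stacked on top (orange), and of the nuclear subunits (grey), for each respiratory complex and library, replicate 2 hatched. Complex IV carries most of the level on copies, and for complexes I and IV the mitochondrial sum without copies is above the nuclear sum in replicate 1 and below it in replicate 2.

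Nuclear genes that transcribe the mitochondrial genome or process its RNAs were at lower levels than the 4 highest nuclear subunit genes of each complex. Of 15 genes for transcription and replication, 7 had at least 1 TPM in each library. Tfam, which packages mitochondrial DNA and starts its transcription, had 43.5 and 44.9 TPM, while Polrmt, the mitochondrial RNA polymerase, had 3.56 TPM in replicate 1 and 92.8 in replicate 2. Mterf3, a regulator of this transcription, had 52.3 and 22.8 TPM, and Tfb2m, a factor for its start, had 16.0 and 57.1 TPM. Of 17 genes found for processing, tailing and decay, 12 reached this level in each library. Hsd17b10, a component of the RNase P of mitochondria, had 232 and 209 TPM, Fastk, known to be needed for the mt-Nd6 mRNA, had 217 and 112 TPM, and Slirp, a partner of the mRNA stabiliser Lrpprc, had 82.2 and 234 TPM. Grsf1, an RNA granule protein, had 0.135 TPM in replicate 1 and 136 in replicate 2. Among those that averaged at least 5 TPM, 9 of 12 and 9 of 15 were over 2-fold apart, beside 54.6% of all genes at that mean. The first count was above that share and the second near it. With so few genes, neither is read as a result about these lists.

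In replicate 1 the mitochondrial genes took 13.7% of TPM, the 13 mRNAs alone 12.8%, and in replicate 2 they took 11.9%, the mRNAs alone 10.9%. With the 4 copies the members took 20.4% and 17.0%, and with all 7 copies of the row the share was 21.01% and 17.3%. Copies elsewhere in the genome added little, since the 8 in the tables held 0.00197% and 0.00103% of TPM. The highest of these were Gm13341, a copy of mt-Co2 on chromosome 2 at 95.9% identity, with 13.2 and 5.87 TPM, and its neighbour Gm13340, a copy of mt-Co1 at 97.6% identity, with 5.53 and 3.51 TPM.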

How the data were processed

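Per the file headers, the authors deposited gene and transcript tables with expected counts (estimated reads that need not be whole), TPM, posterior means and posterior SDs, and lengths in nt. Text notes deposited with them name mm10 and GENCODE M4. The sources used here name no aligner or quantifier. Deposited TPM of the 43346 mouse genes was rescaled to sum to 1000000, without spike-ins (2.40% and 1.27% of counts) and without 26248 rows named by a bare number. Posterior intervals were rescaled likewise. Transcript tables served to check the members. Names, positions and transcripts came from GENCODE M21 on mm10, and all 41 members matched, with lengths equal to the base. Copies were found with blastn 2.17.0 (word size 28, E-value 1e-10).

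The labels give 1 group with 2 biological replicates, so no test was made and values are mean ± SD. The fold count used a pseudocount of 1. Its calculation was checked on simulated counts with counting error only, so the check does not cover the spread between these libraries. The members, lists and pairs were chosen with earlier results of these data known. Named were all rRNA, mRNA and pseudogene members, the 4 highest genes of each nuclear list, the highest copies elsewhere, and the longest and shortest tRNA. Prorp and Fastkd4 were not found by name. TMM factors (edgeR 4.0.16) and size factors (DESeq2 1.42.0) used expected counts rounded to whole numbers. Calculations used Python 3.11.15, numpy 2.4.6, pandas 2.3.3, scipy 1.17.1 and R 4.3.3. Depth was 39671930 and 32751851 counts on mouse genes, and limits cover counting error only.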

Additional observations from a re-analysis of the deposited data

How the results depend on the processing

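The mitochondrial share of TPM, 12.8% in the mean of the libraries, was 8.16% of expected counts, 18.7% with the 4 copies counted as mitochondrial and 19.2% with all 7 of the row. Leaving out a replicate gave 11.9% to 13.7%. The share of the 4 copies in the members, 31.5%, was 25.2% by expected counts, 26.7% by posterior means and 68.5% with only the aligned genes in the denominator (30.1% to 33.0% without a replicate). The ratio of mitochondrial to nuclear subunits, 1.09, was 1.64 with the 4 copies and 1.68 with 7 (0.878 to 1.30 without a replicate). The count of members over 2-fold apart, 1, was 2 at a fold of 1.5, where mt-Co1 joined Gm28661, and 0 with each copy summed with its gene. It was 1 under 7 other settings, and it cannot be had without a replicate. Beside these counts, 54.6% of all genes were called in the main setting and 70.3% at a fold of 1.5. Under the 7 others the share of all genes was 15.1% with no filter, where 41 members were counted, and 54.2% to 59.8% in the rest. With posterior means, mt-Co2 over mt-Co3 turned to -0.024 on the log2 scale, 4 of the other 9 pairs moved by over 1 SD, among them mt-Co1 over mt-Co2, which was -0.06 and -0.20 against 0.47 and 0.03 by TPM, and Gm28661 over mt-Co2 was -0.26. Dividing counts by full length moved the rank of 5 of 13 mRNAs, adding copies by TPM moved 12 and by counts 13. The settings with 7 copies and with summed counts were chosen after seeing the data. No paired analysis was possible because there is 1 group. The lowest count of a measured member was 1287 (mt-Nd4l, replicate 2), and the 22 tRNA genes were not measurable.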
